A study of Mus musculus with 36 samples.

Results

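Olfr910, Olfr912 and Olfr1295 are mouse odorant receptor genes whose RNA level in the main olfactory epithelium (MOE) was described across sex and housing. They are 3 of the 24634 genes with a value in MOE and 3 of the 1105 genes named Olfr there. They were chosen by symbol because their levels in MOE had already been seen to depend on housing and sex in these libraries, so their differences between the MOE groups are given as a description without a test. Mice were kept sex-separated, as females (SF) or males (SM), or sex-combined, again as females (CF) or males (CM). All were C57BL/6 mice that were weaned at 3 weeks, kept 4 to a cage and dissected at 6 months of age. Sex-separated cages stood in rooms that held mice of only their own sex, whereas sex-combined cages held females and males together and their pups were removed soon after birth. Total RNA-seq was made from MOE, from the olfactory bulb (OB) and from the vomeronasal organ (VNO), with 3 libraries per group and tissue and 36 libraries in all. Each library was made from RNA pooled from several mice. The sources differ in pool size and in the number of mice: by the outline of the study's design each pool of a group came from separate mice, whereas the methods text gives too few mice for that, and the labels give smaller pools. The spread given here is that between pools.

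Odorant receptors are G protein-coupled receptors of olfactory sensory neurons. Each mature neuron transcribes a single allele of a single receptor gene out of the whole repertoire, and neurons that chose the same receptor send their axons to shared glomeruli in the bulb. The level of a receptor RNA in a piece of epithelium therefore reflects how many neurons chose that receptor and how much RNA each of them holds, and in these bulk libraries fewer cells and less RNA per cell cannot be told apart. The values are FPKM, fragments scaled to transcript length and sequencing depth, as the authors deposited them.

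Olfr910 and Olfr912 are neighbours in the receptor cluster of chromosome 9 and Olfr1295 lies in the large cluster of chromosome 2. In the mm9 coordinates of the files, Olfr910 spans chr9:38345467-38347414, Olfr912 spans chr9:38387829-38389796, and 40414 bases separate them. Olfr1295 spans chr2:111404661-111405599, 939 bases that hold the coding part alone, whereas the spans of Olfr910 (1948 bases) and Olfr912 (1968 bases) include introns. In SF replicate 1 of MOE a fragment was worth 0.0909 FPKM for Olfr910, 0.0866 for Olfr912 and 0.0944 for Olfr1295, so the levels of the 3 are set over similar lengths. None of the 3 overlaps another gene of the files, and each is represented by 1 entry.

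Olfr910 and Olfr912 are close copies of each other, whereas Olfr1295 is a distant receptor. Their coding sequences of 930 bases each were 96.0% identical in GENCODE M21, with 37 differing bases, and the longest stretch without a difference had 272 bases. Identity to Olfr1295 was 57.8% for Olfr910 and 58.3% for Olfr912 over the aligned bases. The stretch of 180 coding bases with the most differences is shown because it carries 19 of the 37 bases by which reads of the pair can be assigned. It covers coding bases 615 to 794 in the last exon, on the plus strand at chr9:38539511-38539690 for Olfr910 and chr9:38581893-38582072 for Olfr912 (GRCm38), and capitals mark the bases that differ.

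Olfr910: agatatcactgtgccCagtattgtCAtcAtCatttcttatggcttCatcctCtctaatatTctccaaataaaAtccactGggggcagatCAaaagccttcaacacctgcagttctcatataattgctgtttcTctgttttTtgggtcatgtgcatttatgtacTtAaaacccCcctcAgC
Olfr912: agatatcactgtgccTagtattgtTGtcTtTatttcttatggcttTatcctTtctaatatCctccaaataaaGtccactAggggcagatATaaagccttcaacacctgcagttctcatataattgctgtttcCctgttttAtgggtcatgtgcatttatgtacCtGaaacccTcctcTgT

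Reads were paired and 50 bases long, so some could not be placed by their own sequence alone. Of the 881 windows of 50 bases in the coding sequence of Olfr910, 39.3% occurred unchanged in a transcript of another gene, namely Olfr912 or Olfr904. The share was 39.2% for Olfr912, all in Olfr910, and 2.25% of 887 windows for Olfr1295, in the pseudogene Olfr1296-ps1. When up to 2 mismatches to the 5 closest receptors were allowed, the shares were 67.8%, 67.8% and 23.6%. These are shares of single windows of coding sequence. A read pair can be placed by either of its reads, so they are not the shares of fragments that could not be placed. Part of the reads of Olfr910 and Olfr912 can still have been split between these genes by the authors' counting. Their separate levels are uncertain to that extent. The levels of the pair were therefore also summed, as given below.

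The promoters of the pair were also alike. The sequences upstream of the annotated starts of Olfr910 and Olfr912 are shown because these genes had like levels across the groups. Likeness in level was not particular to the pair. Over the 12 MOE libraries Pearson's r was 0.86 between Olfr910 and Olfr912 and 0.84 between Olfr912 and the distant Olfr1295. A link between these sequences and the levels was not tested. They are the RefSeq windows (GRCm38.p6, plus strand) up to the base before the GENCODE start, chr9:38537632-38537848 for Olfr910 and chr9:38579994-38580177 for Olfr912. Capitals mark the bases that are identical between the stretches shown in their alignment. The lower case run at the start of Olfr912 and that at the end of Olfr910 lie outside the alignment. The other stretch does not reach there, so these runs were not compared.

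Olfr910: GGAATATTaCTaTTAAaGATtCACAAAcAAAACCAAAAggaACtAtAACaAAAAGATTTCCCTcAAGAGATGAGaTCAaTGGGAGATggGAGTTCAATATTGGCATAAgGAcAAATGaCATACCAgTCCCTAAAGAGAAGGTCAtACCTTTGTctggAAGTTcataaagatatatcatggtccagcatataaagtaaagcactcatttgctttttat
Olfr912: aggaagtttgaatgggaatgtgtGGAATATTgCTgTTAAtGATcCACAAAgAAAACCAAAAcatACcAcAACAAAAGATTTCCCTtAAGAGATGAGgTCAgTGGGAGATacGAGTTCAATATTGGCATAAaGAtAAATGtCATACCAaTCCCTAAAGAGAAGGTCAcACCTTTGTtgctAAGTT

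Within this alignment 137 of 161 bases (85.1%) were identical. Among the whole RefSeq windows of 940 Olfr genes, that of Olfr912 aligned best to that of Olfr910, and the reverse was also true. The next in both cases was Olfr913, which lies beside Olfr912. The whole windows of the pair run past their GENCODE starts, and the motifs below were sought in whole windows. The motif TAATTA, a core bound by homeodomain proteins such as Lhx2, and TAATTG were in neither window on either strand, nor was TCCCNNGGG, the core bound by Olf1/Ebf factors. These motifs occurred in 18.7%, 23.2% and 2.55% of the 940 Olfr windows and in 5.31%, 8.15% and 6.43% of all 27025 windows. TATAAA was in the window of Olfr910 and not in that of Olfr912, and it occurred in 41.3% of Olfr windows and 14.2% of all windows. The RefSeq start that sets the window of Olfr1295 is its coding start, 4239 bases from the start in GENCODE, so this window is not shown as a promoter. Windows of other Olfr genes can be placed in this way too, so the shares above are not those of promoters alone.

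All 3 receptors had a value above 0 in each of the 12 MOE libraries and passed the filter on low values, a mean FPKM of at least 0.5, which 635 of the 1105 Olfr genes passed. Few fragments lie behind each level. Estimated from the confidence limits in the files, they came to 189 for Olfr910, 361 for Olfr912 and 523 for Olfr1295 over the 12 libraries together. Summed over all genes the same estimate was 3016524 to 5902159 per MOE library, which is a measure of the precision of the gene values and not the number of fragments sequenced or aligned. Intervals built on them cover counting error at most and not the spread between pools. The reads carried no molecular identifiers. Omp, a marker of mature olfactory neurons, was lowest in CM replicate 3 (638 FPKM) and SF replicate 2 (758 FPKM) and lay between 905 and 1130 FPKM in the others. The summed FPKM of all Olfr genes was likewise lowest in these libraries, 950 and 1116, against 1358 to 1768 in the others. Neuronal genes were not alone in this, as the summed FPKM of 5 markers of the supporting sustentacular cells was 497 and 610 there and 697 to 856 in the others. CM replicate 3 also had the fewest estimated fragments, and the paper lists it with the lowest share of aligned reads and the shortest inserts in MOE. For SF replicate 2 the paper lists the lowest RNA integrity and the longest inserts in MOE. The part of library quality in these low values was not tested. Differences of the 3 receptors that rest on these libraries are given with and without them. The correlations and the counts of fully separated groups below include them.

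Olfr910 had its highest levels in SF. Its FPKM was 2.60, 1.72 and 2.27 in SF replicates 1, 2 and 3, 1.16, 1.06 and 1.28 in SM, 0.957, 1.08 and 0.911 in CF, and 1.07, 1.66 and 1.26 in CM. The 3 SF libraries lay above the other 9, though SF replicate 2 exceeded CM replicate 2 only slightly, and the other groups overlapped. In order of the mean, SF had 2.197 ± 0.448 FPKM (SD, n = 3), CM 1.33 ± 0.298, SM 1.17 ± 0.109 and CF 0.983 ± 0.0883. Neighbours in the order after SF did not differ beyond their spread. The level in SF rested on 74 fragments over the 3 libraries (95% Poisson interval 57.9 to 92.7) and that in CF on 31 (21.1 to 44.1). The SD between libraries was 20.4% of the mean in SF, 9.32% in SM, 8.98% in CF and 22.4% in CM, against 20.2%, 26.8%, 31.1% and 26.7% for counting error alone, so the close agreement of the SM and CF libraries is no measure of their precision.

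Olfr912 was also highest in SF. Its FPKM was 4.43, 3.40 and 4.28 in SF replicates 1, 2 and 3, 1.76, 1.54 and 2.00 in SM, 1.65, 2.33 and 1.74 in CF, and 3.23, 2.80 and 1.95 in CM. All SF libraries lay above all others, CM replicates 1 and 2 lay between SF and the rest, and CM replicate 3 lay within the range of SM and CF. The means were 4.03 ± 0.559 FPKM (SD, n = 3) in SF, 2.66 ± 0.650 in CM, 1.91 ± 0.367 in CF and 1.77 ± 0.231 in SM, and SM and CF did not differ beyond their spread. The SF libraries together held 142 fragments (95% Poisson interval 119 to 167) and the SM libraries 66 (50.9 to 83.7).

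The ratio of Olfr912 to Olfr910 was above 1 in every MOE library. It ranged from 1.45 to 3.01, with a mean of 1.85 ± 0.140 (SD, n = 3) in SF, 1.51 ± 0.0580 in SM, 1.93 ± 0.213 in CF and 2.08 ± 0.806 in CM. The highest ratio was that of CM replicate 1.

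Olfr1295 had the highest level of the 3 and the widest span between groups. Its FPKM was 5.93, 6.45 and 6.16 in SF replicates 1, 2 and 3, 2.22, 2.37 and 2.63 in SM, 4.28, 4.30 and 2.94 in CF, and 5.04, 4.79 and 2.12 in CM. The SF libraries were again above the other 9. CM replicate 3 was the lowest of all 12, while the other CM libraries were the highest outside SF. The means were 6.18 ± 0.264 FPKM (SD, n = 3) in SF, 3.98 ± 1.62 in CM, 3.84 ± 0.782 in CF and 2.41 ± 0.207 in SM, and CM and CF did not differ beyond their spread. The SF libraries held 199 fragments (95% Poisson interval 172 to 229) and the SM libraries 83 (66.5 to 103). The SD was 4.28% of the mean in SF and 40.6% in CM, below and above the 12.3% and 15.7% that counting error alone would give.

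**Figure D1:**
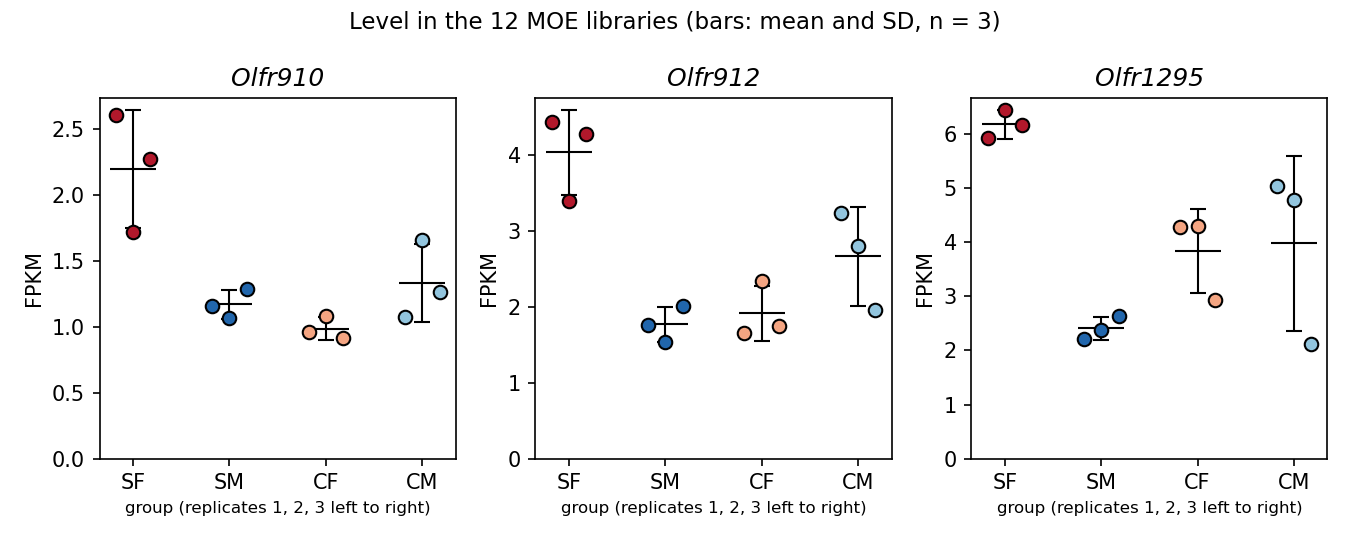
FPKM of Olfr910, Olfr912 and Olfr1295 in the 12 MOE libraries, with replicates 1, 2 and 3 of each group from left to right, and the group mean and SD (n = 3) as bars. For each gene the 3 SF libraries (1.72 to 2.60, 3.40 to 4.43 and 5.93 to 6.45 FPKM) lie above the other 9, and CM replicate 3 is the lowest library for Olfr1295.

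Complete separation of SF from the rest was uncommon, but it is part of what chose these genes. All 3 SF libraries lay above all 9 others in 117 of the 13757 genes tested (0.85%) and in 5 of the 635 Olfr genes (0.787%). The other such Olfr genes were Olfr790 and Olfr1361, which are odorant receptors as well. Nothing is read from this count, since the contrast was used in the choice.

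Between females and males under sex-separated housing, the 3 receptors were higher in females. Differences were taken on log2(FPKM + 0.5), a scale on which those of low genes come out too small. The SF minus SM difference was 0.68 (SE 0.173) for Olfr910, 0.997 (SE 0.185) for Olfr912 and 1.20 (SE 0.235) for Olfr1295. The ratios of mean FPKM were 1.88, 2.28 and 2.57. These differences ranked 11, 3 and 1 from the top among the 635 Olfr genes. In this comparison limma called 14 of 13757 genes (0.102%) at an adjusted p under 0.05, and all SF libraries lay above all SM libraries in 1048 genes (7.62%) and in 30 Olfr genes (4.72%). All SF libraries lay below all SM libraries in 900 genes (6.54%) and in 47 Olfr genes (7.4%). Of the other 632 Olfr genes none was called by limma, with 58 at an unadjusted p under 0.05, and their median difference was -0.01. Over all 13757 genes tested, 572 had an unadjusted p under 0.05.

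Under sex-combined housing the female excess was not seen in any of the 3. The CF minus CM difference was -0.29 (SE 0.173) for Olfr910, -0.38 (SE 0.185) for Olfr912 and 0.01 (SE 0.235) for Olfr1295, and the groups overlapped for each gene. For Olfr910 and Olfr912 the CF mean was the lower one, at 0.739 and 0.717 times the CM mean. The difference of Olfr910 was -0.17 without CM replicate 2, and that of Olfr912 was -0.25 without CM replicate 1. The sign for Olfr1295 depended on the scaling and on single libraries, so no direction is given. Its difference was -0.07 under upper quartile scaling and -0.34 without CM replicate 3. Among all genes limma called 6 (0.0436%) here and none of the other 632 Olfr genes, of which 26 had an unadjusted p under 0.05. Over all 13757 genes tested, 241 had such a p.

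Between the housings, SF lay above CF for each of the 3, whereas SM and CM overlapped. The SF minus CF difference was 0.85 (SE 0.173) for Olfr910, 0.91 (SE 0.185) for Olfr912 and 0.64 (SE 0.235) for Olfr1295. All SF libraries above all CF libraries was an order seen in 1136 genes (8.26%) and in 29 Olfr genes (4.57%). The reverse order was seen in 296 genes (2.15%) and in 16 Olfr genes (2.52%). Limma called 7 genes (0.0509%) and none of the other 632 Olfr genes, of which 33 had an unadjusted p under 0.05. Over all 13757 genes tested, 280 had such a p. In males the SM minus CM difference was -0.12 (SE 0.173), -0.46 (SE 0.185) and -0.55 (SE 0.235), with overlapping groups. The value of Olfr1295 was -0.90 without CM replicate 3 and -0.36 without CM replicate 1, and without CM replicate 2 that of Olfr910 was 0.0017, so that no direction is given for Olfr910. Limma called 9 genes (0.0654%) between SM and CM and none of the other 632 Olfr genes, of which 47 had an unadjusted p under 0.05. Over all 13757 genes tested, 955 had such a p. Here the median over all genes tested was itself 0.17 higher in SM on this scale, and it was 0.01 under upper quartile scaling and -0.02 without CM replicate 3.

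The difference between the sex differences of the housings, SF minus SM less CF minus CM, was 0.97 (SE 0.245) for Olfr910, 1.38 (SE 0.262) for Olfr912 and 1.19 (SE 0.332) for Olfr1295. The SF libraries enter this term as well as the differences from SM and from CF, so these values are not independent of each other. Among the 635 Olfr genes they ranked 7, 1 and 3 from the top. The median over all genes tested was -0.12. Limma called 5 genes (0.0363%) for this term, and of the other 632 Olfr genes it called none, with 42 at an unadjusted p under 0.05 and a median of -0.00. Of all 13757 genes tested, 632 had an unadjusted p under 0.05 for this term.

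**Figure D2:**
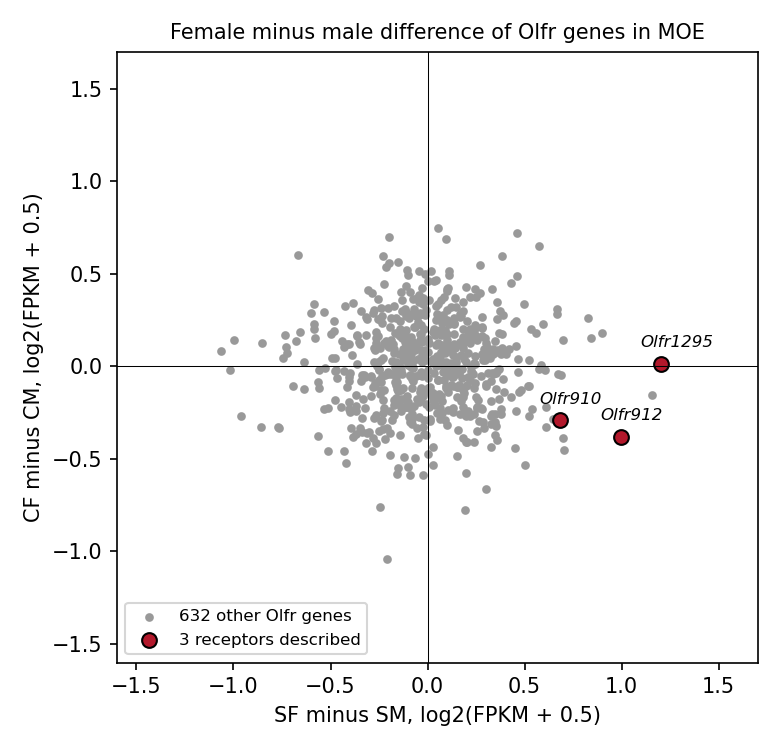
Female minus male difference of the 635 Olfr genes tested in MOE, on the log2(FPKM + 0.5) scale, under sex-separated housing (horizontal axis, SF minus SM) and sex-combined housing (vertical axis, CF minus CM), 3 libraries per group. Olfr910, Olfr912 and Olfr1295 lie far to the right at 0.68, 0.997 and 1.20 and at -0.29, -0.38 and 0.01 on the vertical axis.

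Since the summed FPKM of Olfr genes was lowest in SF replicate 2 and CM replicate 3, the 3 receptors were also expressed relative to all Olfr genes of the library. Per 1000 FPKM of summed Olfr genes, Olfr910 held 1.49, 1.54 and 1.39 in SF, 0.754, 0.747 and 0.852 in SM, 0.672, 0.698 and 0.671 in CF, and 0.607, 0.955 and 1.33 in CM. The SF libraries were again above the other 9, while CM spread over more than the range of SM and CF, with CM replicate 3 near SF.

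On the same scale Olfr912 held 2.53, 3.04 and 2.61 in SF, 1.14, 1.08 and 1.33 in SM, 1.16, 1.503 and 1.29 in CF, and 1.83, 1.61 and 2.06 in CM. Here the CM libraries no longer overlapped with SM or CF and lay between these and SF. All CF below all CM held in 36 of the 635 Olfr genes (5.67%) and all SM below all CM in 35 (5.51%) on this scale.

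Olfr1295 held 3.39, 5.79 and 3.76 per 1000 in SF, 1.44, 1.67 and 1.75 in SM, 3.01, 2.78 and 2.17 in CF, and 2.85, 2.76 and 2.23 in CM. SF was above all others and SM was below all others, with CF and CM overlapping in between. The SM libraries were below the other 9 in 6 of 635 Olfr genes (0.945%) and the SF libraries above the other 9 in 11 (1.73%), and Olfr1295 and Olfr811 were in both counts. All 3 receptors were among the 11. The high value of SF replicate 2 widened the SD of Olfr1295 in SF to 1.29 around a mean of 4.31, whereas as FPKM the SD in SF was 0.264 around a mean of 6.18.

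**Figure D3:**
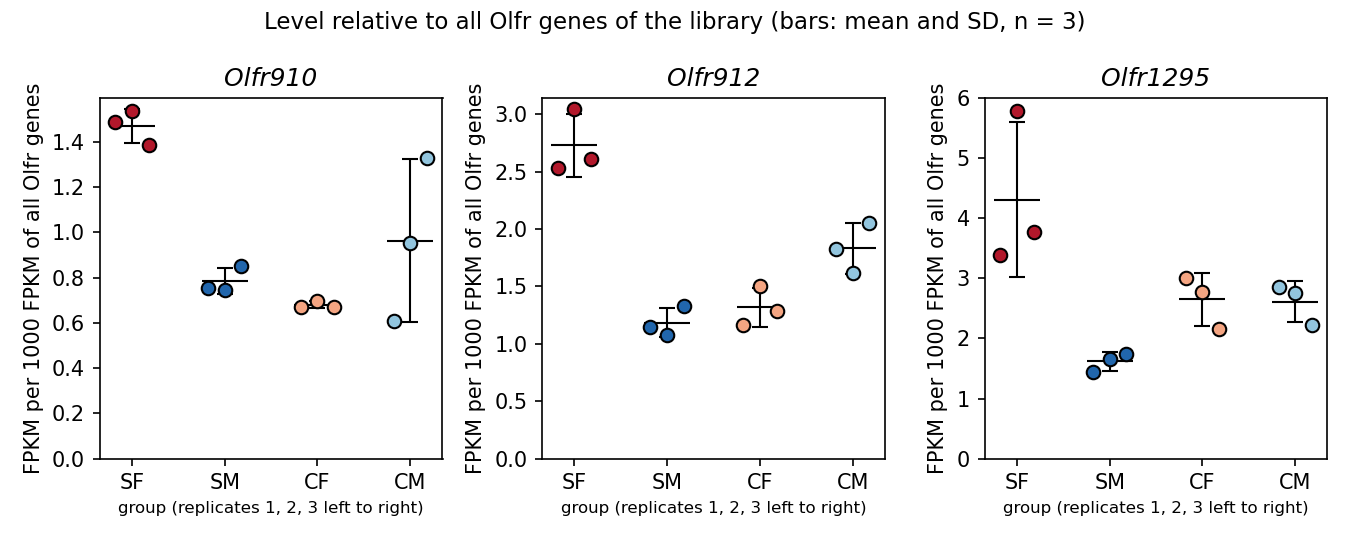
FPKM of Olfr910, Olfr912 and Olfr1295 per 1000 FPKM of all Olfr genes of the same MOE library, with replicates 1, 2 and 3 from left to right and the mean and SD (n = 3) as bars. The 3 SF libraries are above the others for each gene, and for Olfr1295 the SM libraries (1.44 to 1.75) are below all others.

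The position of each receptor within the receptor repertoire showed the same order. Among the 635 Olfr genes ranked by FPKM within a library, Olfr910 stood at percentile 72.2 ± 2.66 (mean ± SD, n = 3) in SF, 44.3 ± 4.18 in SM, 37.6 ± 0.867 in CF and 52.4 ± 18.3 in CM. Olfr912 stood at 89.0 ± 1.59 in SF against 64.0 ± 4.61 in SM, 68.1 ± 5.14 in CF and 81.1 ± 3.54 in CM. Olfr1295 stood at 95.1 ± 2.08 in SF and at 76.6 ± 2.89 in SM, with 88.7 ± 2.86 in CF and 88.5 ± 2.74 in CM.

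No gene of the mature olfactory sensory neuron list was called in any comparison. The list of 12 included Omp, the transduction channel subunit Cnga2, the adenylyl cyclase Adcy3 and the G protein subunit Gnal, and all 12 were tested. Limma called 0 of 12 in each of the 5 comparisons, with 0 at an unadjusted p under 0.05. Their median SF minus SM difference was -0.13 against -0.02 over all genes. The median was 0.15 for CF minus CM, -0.02 for SF minus CF and 0.26 for SM minus CM. Over all genes these medians were 0.10, 0.06 and 0.17. For the difference between the sex differences it was -0.27 against -0.12 over all genes. The summed FPKM of the 12 genes ranged from 1988 to 3047 in SF, 2680 to 2716 in SM, 2435 to 2895 in CF and 1696 to 2837 in CM. Of 6 genes of immature neurons, among them Gap43 and Gng8, limma also called 0 in each comparison, with 1 at an unadjusted p under 0.05 between SF and SM and 1 between SF and CF. The part of tissue content in the levels of the receptors was not tested beyond the scaling above, and without both SF replicate 2 and CM replicate 3 the SF minus SM differences were 0.82, 1.10 and 1.17.

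Reads shared within the pair could move the size of the differences. With Olfr910 and Olfr912 summed, the SF minus SM difference was 0.96, the CF minus CM difference -0.40, the SF minus CF difference 0.99 and the SM minus CM difference -0.38. For Olfr910 alone these were 0.68, -0.29, 0.85 and -0.12.

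None of the tested neighbours of the pair was called by limma between SF and SM, and Olfr913 alone among them had an unadjusted p under 0.05. Olfr914 and Olfr913, the closest receptors to Olfr910 in coding sequence after Olfr912, were 82.1% and 80.9% identical to it, and in mm9 they lie 24255 and 10591 bases from Olfr912. Olfr913 was lower in SF than in SM, with 0.418 ± 0.0762 FPKM (SD, n = 3) against 1.07 ± 0.222, a log2 difference of -0.76 (limma adjusted p = 0.318), and no SF library reached the lowest SM library. Olfr914 had 1.02 ± 0.446 FPKM in SF and 0.735 ± 0.137 in SM, a difference of 0.25 (limma adjusted p = 1). On the other side, Olfr908, 20916 bases from Olfr910, was listed at 0 in all 12 libraries, and Olfr906 and Olfr907 did not pass the filter. Olfr915, beyond Olfr914, did not pass it either.

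None of the tested neighbours of Olfr1295 was called by limma between SF and SM. Olfr1298 (87.6% identical), Olfr1294 (87.5%) and Olfr1297 (86.4%) were its closest relatives in coding sequence. Olfr1294, 26216 bases away, had 6.69 ± 1.61 FPKM (SD, n = 3) in SF, 6.25 ± 0.397 in SM, 6.72 ± 1.14 in CF and 6.32 ± 0.898 in CM, with an SF minus SM difference of 0.07 (limma adjusted p = 1). Olfr1297 had a difference of 0.07 and Olfr1290 one of -0.27 (limma adjusted p = 1 for each). Olfr1299, 96010 bases away, was at 1.63 ± 0.302 FPKM in SF and 2.66 ± 0.177 in SM, a difference of -0.58 (limma adjusted p = 0.851), and was the only tested neighbour with an unadjusted p under 0.05. Olfr1289 and Olfr1298 did not pass the filter.

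Among 17 other tested Olfr genes within 500 kb of Olfr912 the SF minus SM difference ranged from -0.76 to 0.61 with a median of 0.03, and among 21 within 500 kb of Olfr1295 it ranged from -0.58 to 0.47 with a median of 0.05. Of the 50 other tested Olfr genes of chromosome 9 and the 190 of chromosome 2, limma called 0 in each of the 5 comparisons, with 2 to 5 and 6 to 15 genes at an unadjusted p under 0.05.

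**Figure D4:**
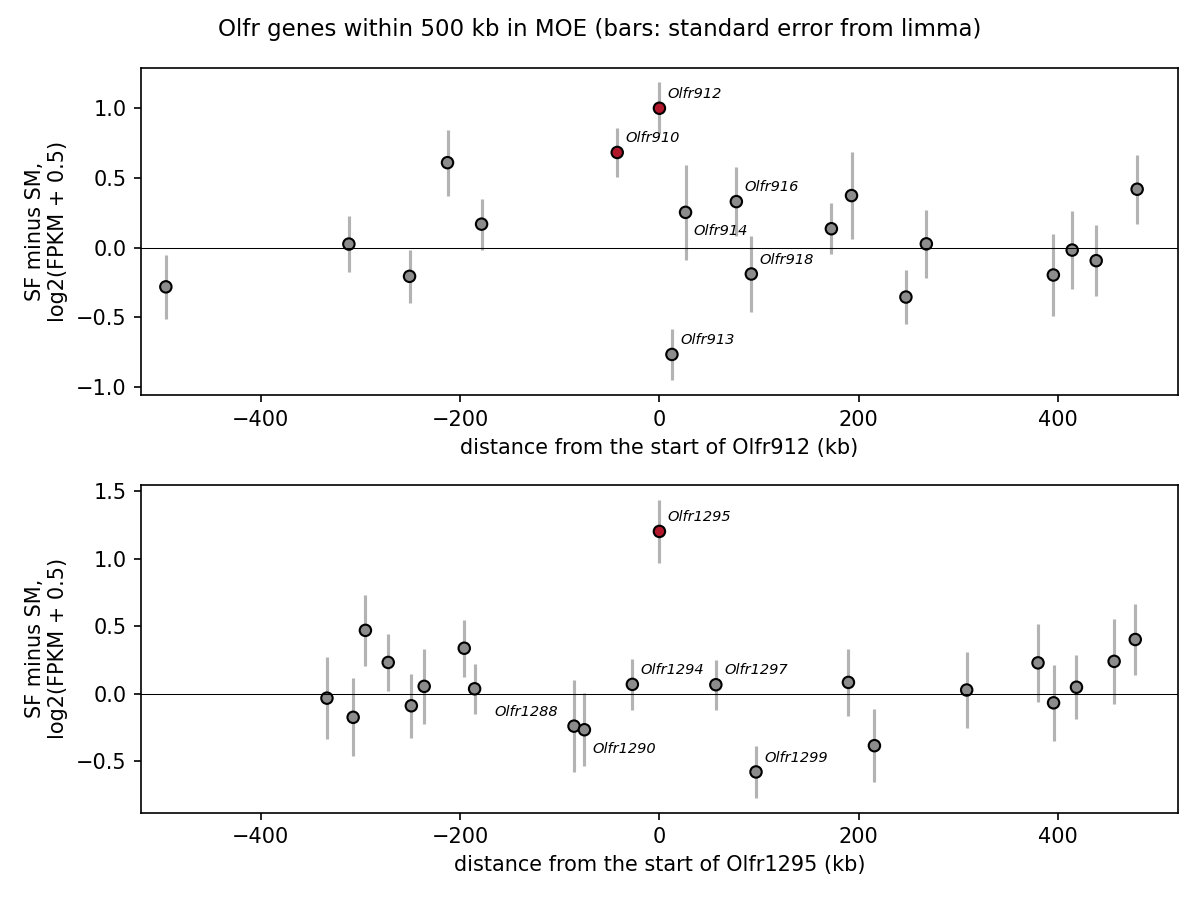
SF minus SM difference on the log2(FPKM + 0.5) scale, with its standard error (3 libraries per group), of the tested Olfr genes within 500 kb of Olfr912 (top) and Olfr1295 (bottom), against the distance of their starts in kb. The receptors described (red, at 0.68, 0.997 and 1.20) are above all others shown, and Olfr913 beside Olfr912 is the lowest of the top panel at -0.76.

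Receptors with a reported ligand among mouse odours or musks were set beside them. Olfr1509, a receptor for the male urinary thiol MTMT, was at 7.38 ± 2.82 FPKM (SD, n = 3) in SF and 6.55 ± 0.719 in SM, a log2 difference of 0.10 (limma adjusted p = 1). The muscone receptor Olfr235 was at 0.758 ± 0.292 in SF, 1.99 ± 0.377 in SM, 1.74 ± 0.512 in CF and 1.57 ± 0.622 in CM, with a difference of -0.997 between SF and SM (limma adjusted p = 0.318). The other muscone receptor Olfr1440 had a difference of -0.27 (limma adjusted p = 1), and Olfr288 and the trimethylamine receptor Taar5 did not pass the filter. Of these 5 receptors 3 were tested and 0 were called in any comparison, with Olfr235 at an unadjusted p under 0.05 between SF and SM, between SF and CF, and for the interaction.

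The levels of the 3 receptors were compared with each other and with all other genes over the 12 MOE libraries. As a description, on log2(FPKM + 0.5), Pearson's r was 0.86 between Olfr910 and Olfr912 (Spearman's rho 0.83), 0.84 between Olfr912 and Olfr1295 (rho 0.80) and 0.62 between Olfr910 and Olfr1295 (rho 0.52). After the group means were removed, r was 0.41, 0.68 and 0.10. In the same way, r with Omp was 0.58 for Olfr910, 0.86 for Olfr912 and 0.70 for Olfr1295, and r with the summed Olfr FPKM was 0.50, 0.86 and 0.73. Olfr910 and Olfr912 share reads, and the values of a library share its depth and its tissue content.

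The genes most like each receptor were taken as those with the highest r of all genes tested. They were Oas1a (r = 0.83), the odorant receptor Olfr672 (0.81) and Optn (0.81) for Olfr910, and AW112010 (0.92), Tnmd (0.87) and Dipk1a (0.86) for Olfr912. For Olfr1295 they were Cfap299 (0.91), Gbp2 (0.90) and Fam166b (0.88). Spearman's rho with Olfr910 was 0.44 for Oas1a, 0.62 for Olfr672 and 0.83 for Optn. It was at least 0.86 for the genes named for Olfr912 and Olfr1295. Oas1a had a mean of 0.55 FPKM, little above the filter of 0.5. Among Olfr genes alone, Olfr672 was the most like Olfr910 and Olfr912 (r = 0.81 and 0.86), followed by Olfr1404 and Olfr790 for Olfr910 and by Olfr811 and Olfr1052 for Olfr912. Olfr770, Olfr847 and Olfr811 were the most like Olfr1295 (r = 0.87, 0.84 and 0.83). Olfr672 had mean levels of 8.21 FPKM in SF, 5.88 in SM, 5.27 in CF and 6.01 in CM.

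Outside MOE the receptors were found as traces. Olfr910 was listed at 0 in all 12 OB and all 12 VNO libraries. Olfr912 was above 0 in 3 OB libraries, SF replicate 1 (0.0563 FPKM), SM replicate 2 (0.0734) and CM replicate 1 (0.0642), and in 2 VNO libraries, SM replicates 1 and 2 (0.0823 and 0.0934). Each of these values corresponded to 1 fragment.

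Olfr1295 was above 0 in 6 OB libraries with 7 fragments in all, at most 0.162 FPKM in CF replicate 1, and in 4 VNO libraries with 4 fragments, at most 0.102 FPKM in SF replicate 1. All these values were below the floor of 3 fragments, which corresponded to 0.188 to 0.401 FPKM over the 3 genes and the OB libraries. The traces were therefore not counted as expression, and no difference between groups could be detected at this depth. Two-sided exact permutation tests of 3 against 3 libraries gave p of 0.4 to 1 in 8 comparisons in OB and in 6 in VNO, with adjusted p of at least 0.8, where the smallest p that such a test can give is 0.1.

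No scaling beyond FPKM was made across the tissues, so levels across them are set side by side without a test. Pooled over the 12 libraries, Olfr912 was 135 times higher in MOE than in OB (95% counting interval 45.9 to 659) and 201 times higher than in VNO (55.2 to 1666). Olfr1295 was 84.0 times higher in MOE than in OB (40.5 to 210) and 146 times higher than in VNO (56.5 to 536). For Olfr910 the level in MOE was at least 70.8-fold higher than in OB and at least 70.1-fold higher than in VNO, when the other tissue was set to 3 fragments over its 12 libraries. For comparison, the summed FPKM of Olfr genes was 73.6 times higher in MOE than in OB and 48.0 times higher than in VNO, and Omp was 28.0 and 9.72 times higher.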

How the data were processed

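RNA of C57BL/6 mice was sequenced as rRNA-depleted, stranded total RNA libraries with paired reads of 50 bases. The authors aligned the pairs with TopHat2 (2.1.0) to mm9 and deposited FPKM values from Cufflinks (2.2.1.0), with confidence limits, per RefSeq entry. How reads that fit several places were shared is not given in the sources used here. Cuffdiff is also named in the submitters' processing notes, and no result of it was used.

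Entries were given symbols through their RefSeq accession (99.7% of entries) and summed by gene, and genes with an entry that was not marked as successful were left out (5 in MOE). Fragments were estimated by dividing FPKM by its standard error, from the 95% limits, and squaring, and the floor was 3 fragments. Groups were compared in R 4.3.3 with limma 3.58.1 (eBayes with trend) on log2(FPKM + 0.5) in 1 fit over the 12 MOE libraries, for the 13757 genes whose mean FPKM reached 0.5, with Benjamini-Hochberg adjustment over all of them. The comparisons were tested on simulated data. OB and VNO values of the receptors were compared by exact permutation tests on log2(FPKM + 0.1). Sequences were taken from GENCODE M21 and RefSeq (GRCm38) and aligned with Biopython 1.88, and other steps used matplotlib 3.10.9, scipy 1.17.1, pandas 2.3.3 and numpy 2.4.6 in Python 3.11.15.

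The 3 receptors, the gene lists, the tests and the alternatives were chosen with earlier results of these data known. Named genes were, for each receptor, the 3 genes and the 3 Olfr genes of highest r, the 3 nearest Olfr genes on each side, and the closest in coding sequence, which took the place of protein identity, together with neuron markers and receptors with reported ligands. Olfr1361 and other genes that shared a count were named after their values were seen. Marker lists of sustentacular, basal, vomeronasal and bulb cells had 0 genes called by limma in each comparison, with 0 at an unadjusted p under 0.05. Alternatives were pseudocounts of 0.1 and 1, no filter, upper quartile and quantile scaling, scaling to Olfr genes or to mature neuron genes, a block for the replicate number, fits restricted to the groups compared, and each library left out.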

Additional observations from a re-analysis of the deposited data

How the results depend on the processing

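Of 238 alternative values for the differences of the 3 receptors in MOE, 225 moved by less than 1 SD and 13 by more. The 225 include the values with the replicate number as a block, which cannot move in this balanced design. For Olfr910 the SF minus SM difference became 0.96 and the SM minus CM difference -0.38 when it was summed with Olfr912, the SF minus CF difference became 1.07 at a pseudocount of 0.1, and the interaction of sex and housing became 1.22 at a pseudocount of 0.1, 0.777 at a pseudocount of 1, 1.16 when scaled to mature neuron genes and 1.37 when summed with Olfr912. The interaction of Olfr912 became 1.66 without both SF replicate 2 and CM replicate 3, the libraries of lowest summed Olfr FPKM, a setting added after the data were seen, as was the sum of the pair. Without these libraries the CF minus CM difference of Olfr1295 was -0.34 and the SM minus CM difference -0.90. The first of these changed sign, and its size rested on CM replicate 3. Its sign also changed without CF replicate 1 (-0.06) or CF replicate 2 (-0.07). The same was true under upper quartile scaling, quantile scaling and scaling to mature neuron genes.

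With 1 library left out at a time, the differences of Olfr910, Olfr912 and Olfr1295 ranged from 0.57 to 0.82, 0.92 to 1.10 and 1.16 to 1.26 for SF minus SM, from -0.40 to -0.17, -0.55 to -0.25 and -0.34 to 0.20 for CF minus CM, from 0.74 to 0.99, 0.84 to 1.04 and 0.48 to 0.72 for SF minus CF, from -0.23 to 0.0017, -0.64 to -0.33 and -0.90 to -0.36 for SM minus CM, and from 0.85 to 1.11, 1.25 to 1.55 and 0.997 to 1.54 for the interaction.

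The counts of genes called by limma were small and moved with the settings. Without a filter, limma called 7 genes for SF against SM, 2 for SF against CF, 3 for SM against CM and 3 for the interaction. A pseudocount of 0.1 gave 5 between SM and CM and 3 for the interaction, and upper quartile and quantile scaling each gave 2 for the interaction. The genes at an unadjusted p under 0.05 between SF and SM rose from 572 to 2133 under upper quartile scaling. With 1 library left out the counts ranged from 10 to 16 for SF and SM, 6 to 9 for CF and CM, 2 to 9 for SF and CF, 3 to 16 for SM and CM and 1 to 11 for the interaction. They moved by over 1.5 times for SF and CF without SF replicate 2 (2 genes) or CF replicate 3 (4), for SM and CM without SM replicate 1 (4), SM replicate 2 (3), CM replicate 2 (4) or CM replicate 3 (16), and for the interaction without SF replicate 2 (1), SF replicate 3 (11), CM replicate 1 (3) or CM replicate 3 (8). The cause of these moves was not tested.

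Deviations from the group means had r of -0.07 to 0.24 between libraries with the same replicate number. The highest was that of CF and CM replicate 2, and libraries with different numbers reached 0.195. These values cannot settle whether libraries share a cage, litter or day, which the labels do not give. Sex-combined cages held both sexes, so CF and CM pools can share cages. With the replicate number as a block, 18, 7, 11, 9 and 6 genes were called in the 5 comparisons, against 14, 6, 7, 9 and 5. The differences of the 3 receptors were the same, which is fixed in advance because every group holds the same numbers. Depth limits what can be said of OB and VNO, where no value of the receptors reached the floor.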
